A study of Mus musculus with 8 samples.

Results

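Abca1, Abca4, Abca8a and Abcg1, genes of ATP-binding cassette (ABC) transporters that move lipids or retinoids across membranes, were compared between retinal cells of libraries labelled as ABCA1 knockout and control retinal cells. The genes were taken by symbol, and all 4 were present among the 1802 genes (rows) that the authors' deposited table lists. The study dissociated mouse retina with papain and captured single cells in droplets, with sequencing from the 3′ end of transcripts. It has 5 libraries with the genotype label ABCA1KO, called KO-labelled here, and 3 with the genotype label Control, called WT here. Strain, age and sex, the deleted part of Abca1, the cells in which it was deleted and whether each library is 1 animal are not stated in any source used here. Every value below pools all cells of a genotype, with no value per library, so the spread between libraries cannot be compared with any difference. Depth and the number of cells are unknown here.

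ABC transporters use the binding and hydrolysis of ATP to move a substrate across or between the leaflets of a membrane. ABCA1 loads cholesterol and phospholipid onto lipid-poor apolipoproteins, ABCG1 passes sterols on to more mature lipoprotein particles, and both genes are switched on by the liver X receptors, which sense oxysterols. ABCA4 sits in the rims of photoreceptor outer segment discs and clears retinal bound to phosphatidylethanolamine, and its loss in humans causes Stargardt macular dystrophy. ABCA8 in humans has been linked to cellular cholesterol efflux, and the mouse has a neighbouring pair of such genes, Abca8a and Abca8b.

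The start regions of Abca1 and of Abca4 are shown because these genes had the highest and the lowest log difference of the 4. Rbp3, which encodes the retinoid carrier between photoreceptors and pigment epithelium, is shown because its row lay nearest to that of Abca4. Each sequence runs from 250 bases before to 50 bases after the gene's start in RefSeq on GRCm38.p6, at chr4:53159846-53160145 on the minus strand for Abca1, chr3:122044210-122044509 on the plus strand for Abca4 and chr14:33953753-33954052 on the plus strand for Rbp3. Capitals mark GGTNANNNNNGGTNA and CACGTG in Abca1, and TAATTA and TAATCC in Abca4 and Rbp3, searched on both strands.
Abca1: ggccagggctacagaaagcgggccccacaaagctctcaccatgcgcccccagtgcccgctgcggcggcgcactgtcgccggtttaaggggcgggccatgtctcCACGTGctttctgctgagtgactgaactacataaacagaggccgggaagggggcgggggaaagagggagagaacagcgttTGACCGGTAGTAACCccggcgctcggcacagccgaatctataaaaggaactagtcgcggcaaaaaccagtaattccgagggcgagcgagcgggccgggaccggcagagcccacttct
Abca4: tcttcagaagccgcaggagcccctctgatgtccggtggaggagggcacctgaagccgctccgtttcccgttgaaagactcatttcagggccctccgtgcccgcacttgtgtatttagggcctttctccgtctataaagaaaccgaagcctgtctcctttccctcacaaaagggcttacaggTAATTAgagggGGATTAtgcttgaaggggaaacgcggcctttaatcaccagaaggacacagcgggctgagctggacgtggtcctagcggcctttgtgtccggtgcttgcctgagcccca
Rbp3: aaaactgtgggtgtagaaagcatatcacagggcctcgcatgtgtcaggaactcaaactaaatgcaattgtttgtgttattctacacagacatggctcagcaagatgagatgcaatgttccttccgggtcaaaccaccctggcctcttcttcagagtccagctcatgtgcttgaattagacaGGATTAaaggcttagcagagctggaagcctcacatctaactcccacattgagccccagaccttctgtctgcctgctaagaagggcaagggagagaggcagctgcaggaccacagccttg

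Liver X receptors bind direct repeats with a spacing of 4 bases, and the strict form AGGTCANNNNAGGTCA was in none of these sequences and in 0.0152% of 32851 start regions in RefSeq. The looser form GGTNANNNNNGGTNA, which was chosen with the Abca1 sequence in view, began 67 bases before the start of Abca1 on the opposite strand, and 0.718% of all start regions hold it. CACGTG, the E-box, began 147 bases before the start of Abca1 and is held by 7.15% of start regions. It also began 136 bases before the start of Abca8a and 18 bases after that of Abca8b, whose windows are not shown. TAATCC, the core bound by the photoreceptor factors CRX and OTX2, was on the opposite strand 58 bases before the start of Abca4 and 69 bases before that of Rbp3, against 7.06% of start regions. TAATTA began 69 bases before the start of Abca4, against 5.29% of start regions, and had no match in the Rbp3 window. It also began 222 bases before the start of Abca8a. These matches describe letters in a window and are not evidence of binding.

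Of the 4 transporter genes, Abca1 was called higher in KO-labelled cells, Abca8a and Abcg1 were called lower, and Abca4 was not called. A call is an adjusted p under 0.05 in the authors' deposited table, and 3 of the 4 genes (75%) were called against 93.2% of all rows. No listed row has a raw p above 0.00938, and 198 of an inferred 2000 features are not listed. All rows, here and below, are thus a background that already holds only small p-values. Higher calls made up 69.1% of all rows and lower calls 24.1%, per the authors' deposited table. Higher or lower is the sign of the log difference alone. The test is not stated, so its p need not bear on that sign. At an adjusted p under 0.001 the same 3 genes were called against 90.1% of all rows. The measure is a difference of log values (KO-labelled minus WT), read as natural log and apparently of batch-integrated values, so it is not a fold change of expression. The 4 genes had a median log difference of -0.00514, against 0.0100 for all rows of the authors' deposited table. With 4 genes, these counts do not set them apart from other genes.

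All 4 genes had a value above 0 in a larger share of KO-labelled cells than of WT cells, by 13.1 to 25.1 percentage points in the authors' deposited table. That was so for 97.9% of all rows, with a median of 20.8 percentage points, so it is not particular to these genes. If the values are batch-integrated, a value above 0 need not mean that a transcript was detected in the cell. For Abca4, Abca8a and Abcg1 the larger share went with a log difference below 0. Of 466 rows with a log difference below 0 in the authors' deposited table, 454 (97.4%) also had a larger share in KO-labelled cells. So did 423 of the 434 rows called lower, so a lower call does not mean fewer cells above 0.

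**Figure D1:**
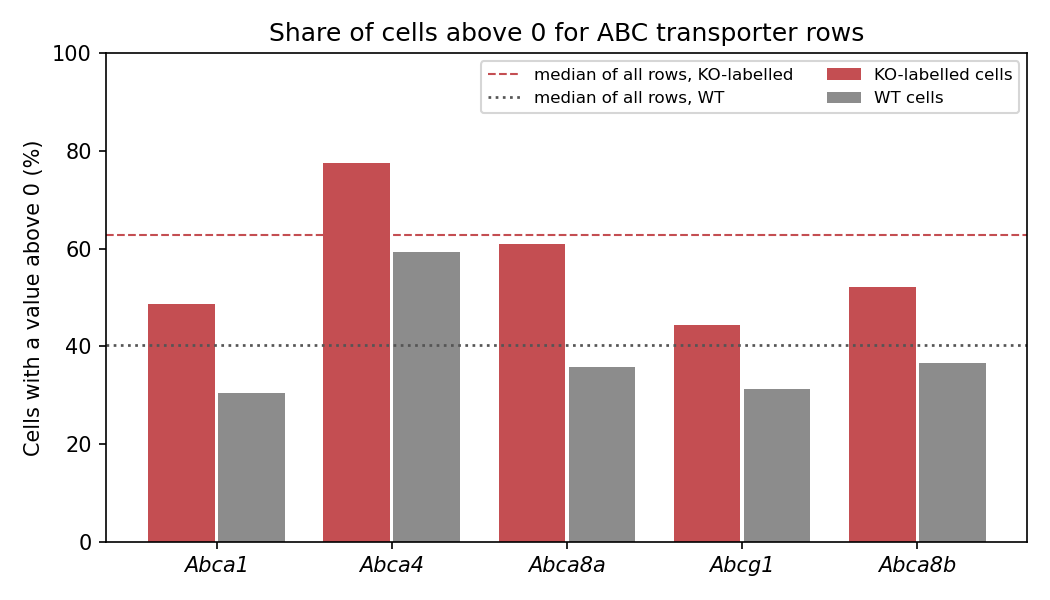
Percent of KO-labelled cells (red, left bar) and WT cells (grey, right bar) with a value above 0 for the 4 genes and Abca8b, in the authors' deposited table; lines give the medians of all rows. The red bar is taller for every gene, and only Abca4 lies above both medians, with 77.4% and 59.3%.

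Abca1, the targeted gene, was listed as higher and not lower in KO-labelled cells. It lies on the minus strand of chromosome 4 at chr4:53030787-53159895 (GRCm38, GENCODE M21, ENSMUSG00000015243.4), with 50 exons in its reference transcript and a 3′ untranslated region of 3156 bases. For Abca1, the authors' deposited table lists a value above 0 in 48.7% of KO-labelled cells, against 30.5% of WT cells. Its log difference, from the authors' deposited table, was 0.0294 (adjusted p = 4.49e-05), and 75.5% of rows had a lower one. The deleted part and the cells in which it was deleted are not stated, and the 3′ end can lie outside a deleted part. These pooled values therefore do not check the genotype labels, and every direction given here is that of the labels. Why Abca1 was not lower was not tested.

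Abca1 ranked higher among genes with a value above 0 in a like share of WT cells. Of 387 other rows within 5 percentage points of its WT share in the authors' deposited table, 348 (89.9%) had a lower log difference than Abca1, and their median was 0.00584. The difference of 18.2 percentage points in the share of cells lay in the middle of those rows, since 210 had a larger one and 175 a smaller one.

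Rows nearest to Abca1 were found by distance in KO-labelled share, WT share and log difference, each divided by its SD over all rows, in this 1 comparison. They were C130073E24Rik, Gabrb1, a subunit gene of the GABA-A receptor, and Pkp4, a plakophilin gene, at distances of 0.0683, 0.119 and 0.139. Their log differences were 0.0288, 0.0327 and 0.0305 in the authors' deposited table. Gabrb1 was not called (adjusted p = 1 in the authors' deposited table), although its values were close to those of Abca1.

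**Figure D2:**
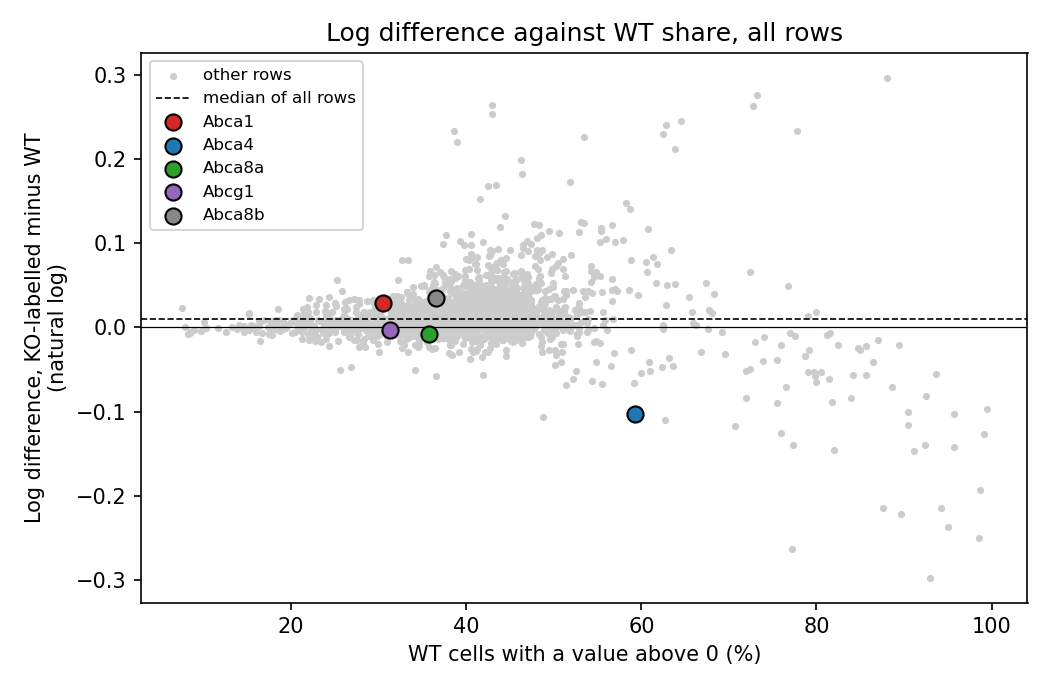
Log difference (KO-labelled minus WT, natural log) against the percent of WT cells with a value above 0, for all 1802 rows of the authors' deposited table; the dashed line is the median of all rows. Abca1 (0.0294) lies above the median, Abca8a (-0.00742) and Abcg1 (-0.00286) just under 0, and Abca4 (-0.102) below all but 1 of the 61 rows within 5 percentage points of its WT share.

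Abcg1, the sterol exporter that acts downstream of ABCA1, had a log difference close to 0 and the smallest p of the 4 genes. The gene lies on the plus strand of chromosome 17 at chr17:31057675-31117988 (GRCm38, ENSMUSG00000024030.7), with 15 exons and a 3′ untranslated region of 3703 bases. In the authors' deposited table Abcg1 was above 0 in 44.4% of KO-labelled cells, against 31.3% of WT cells. The log difference of Abcg1, from the authors' deposited table, was -0.00286 (adjusted p = 2.99e-123). Of the other rows, 245 were as near to 0 or nearer, and 85 of them had a smaller raw p than Abcg1 in the authors' deposited table.

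For Abcg1 the difference in the share of cells was smaller than for most genes of like WT share. Its share was 13.1 percentage points larger in KO-labelled cells, and 342 of 429 rows within 5 points of its WT share had a larger difference, while 85 had a smaller one, in the authors' deposited table. The median difference of those rows was 19.4 percentage points. The rows nearest to Abcg1 were Cd151, a tetraspanin gene, Tmem47, a membrane protein gene, and D5Ertd579e, with log differences of -0.00485, 0.00176 and 0.00204 in the authors' deposited table. All 3 were called, and the log differences of the last 2 lie below the median row although they are above 0.

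Genes listed for sterol efflux, for lipoproteins or as liver X receptor targets had calls in both directions. Of 39 efflux partners, lipoprotein genes and liver X receptor targets looked for, 11 were listed in the authors' deposited table. Of these 11, 7 were called higher and 3 lower, against 69.1% and 24.1% of all rows. Their median log difference was 0.0174 in the authors' deposited table, against 0.0100 for all rows. Read against that median, 6 of the 10 called genes were higher. Those farthest from 0 all had higher calls in the authors' deposited table, namely the desaturase gene Scd2 (log difference 0.112), the apolipoprotein gene Apoe (0.0783), the sterol-responsive regulator gene Insig1 (0.0586) and the lipoprotein receptor gene Lrp1 (0.0557). Nothing can be said of the 28 genes that were not listed.

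Markers of glia and microglia, cells in which sterol efflux genes are active, are given beside Abca1 and Abcg1. The 8 listed Müller glia markers had 6 higher and 2 lower calls by the authors' deposited table, with Vim at 0.0801 and Dkk3 at 0.0650 and a median log difference of 0.0308. The 5 listed astrocyte markers had 4 higher calls and 1 lower call by the authors' deposited table, with Gja1 at 0.0444, Slc1a2 at 0.0293, the water channel gene Aqp4 at -0.0288, Gfap at 0.0101 and a median of 0.0101. The 9 listed microglia and macrophage markers had 5 higher and 4 lower calls by the authors' deposited table, with log differences from -0.00387 to 0.0373, the highest being that of C1qb, and a median of 0.000755. Beside these counts, 69.1% of all rows were called higher and 24.1% lower. Read against the median row, 5 Müller glia, 3 astrocyte and 3 microglia markers were higher, as were 49.2% of all called rows. Aqp4 counts in both the Müller glia and the astrocyte list, and Apoe and Clu in both the efflux and the Müller glia list, so these counts are not separate observations. By the authors' deposited table, every listed marker of these lists was above 0 in a larger share of KO-labelled cells, which ran from 17.7% to 83.1%, against 10.1% to 66.2% of WT cells. Their part in the values of Abca1 and Abcg1 was not tested, and in pooled cells more cells of a type and more RNA per cell cannot be told apart.

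**Figure D3:**
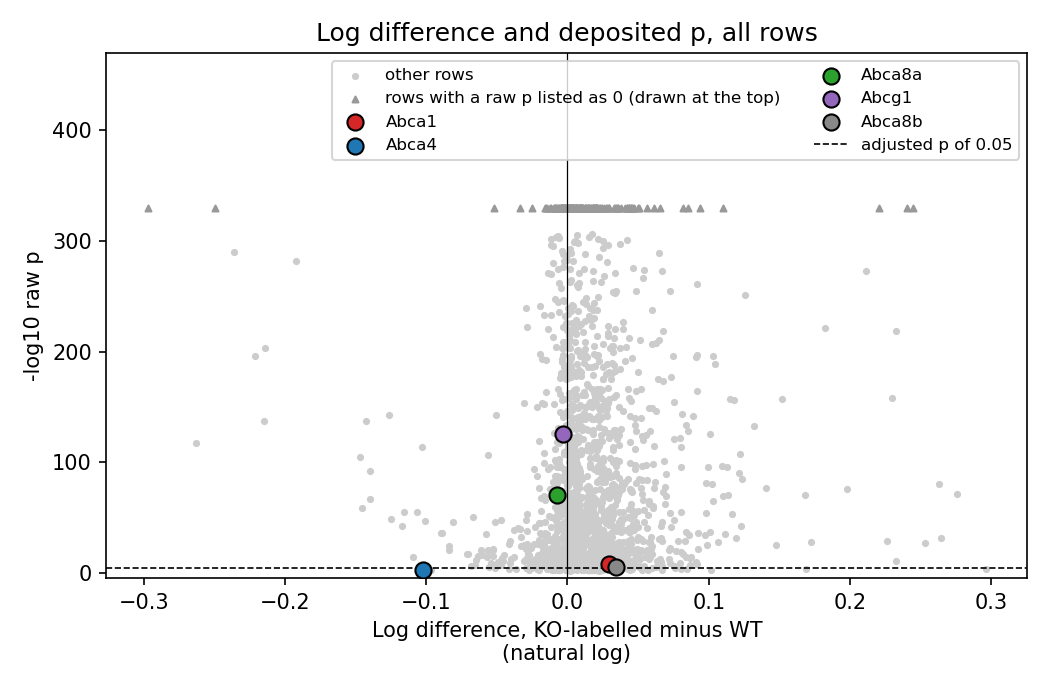
The -log10 of the raw p against the log difference (KO-labelled minus WT, natural log) for all rows of the authors' deposited table; triangles at the top are 183 rows whose raw p is listed as 0, and the dashed line marks an adjusted p of 0.05. Abcg1, nearest to 0, has the smallest p of the 4 genes, and Abca4, farthest from 0, lies below the line.

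Abca4, the retinoid transporter of photoreceptor discs, had the log difference farthest from 0 of the 4 genes and was the one not called. It lies on the plus strand of chromosome 3 at chr3:122044443-122180123 (GRCm38, ENSMUSG00000028125.14), with 50 exons and a 3′ untranslated region of 226 bases. Per the authors' deposited table, Abca4 was above 0 in 77.4% of KO-labelled cells, against 59.3% of WT cells. The log difference of Abca4, from the authors' deposited table, was -0.102 (raw p = 0.00197, adjusted p = 1). This made it the row at rank 21 from the lowest of 1802, and of the 63 rows at least as far from 0 only Crybb2, Gria2 and Abca4 itself were not called in the authors' deposited table. With Benjamini-Hochberg adjustment of the deposited raw p over 2000 features, the unlisted ones set at 1, Abca4 would be called (adjusted p = 0.00223), as would all 1802 rows (100%).

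Genes with a value above 0 in a like share of WT cells mostly had a log difference above 0. The 61 other rows within 5 percentage points of the WT share of Abca4 had a median of 0.0427 in the authors' deposited table, and Rbp3 alone of them had a lower log difference than Abca4. Rbp3 had a log difference of -0.109, an adjusted p of 7.5e-12 and values above 0 in 74.1% of KO-labelled cells, against 62.7% of WT cells, by the authors' deposited table. The next nearest rows were Fam57b (log difference -0.0655) and Slc24a1 (-0.117 in the authors' deposited table), the sodium, calcium and potassium exchanger gene of rods, and both were called lower. The distances of Rbp3, Fam57b and Slc24a1 from Abca4 were 0.395, 0.950 and 0.987, larger than those of the rows nearest to the other 3 genes.

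**Figure D4:**
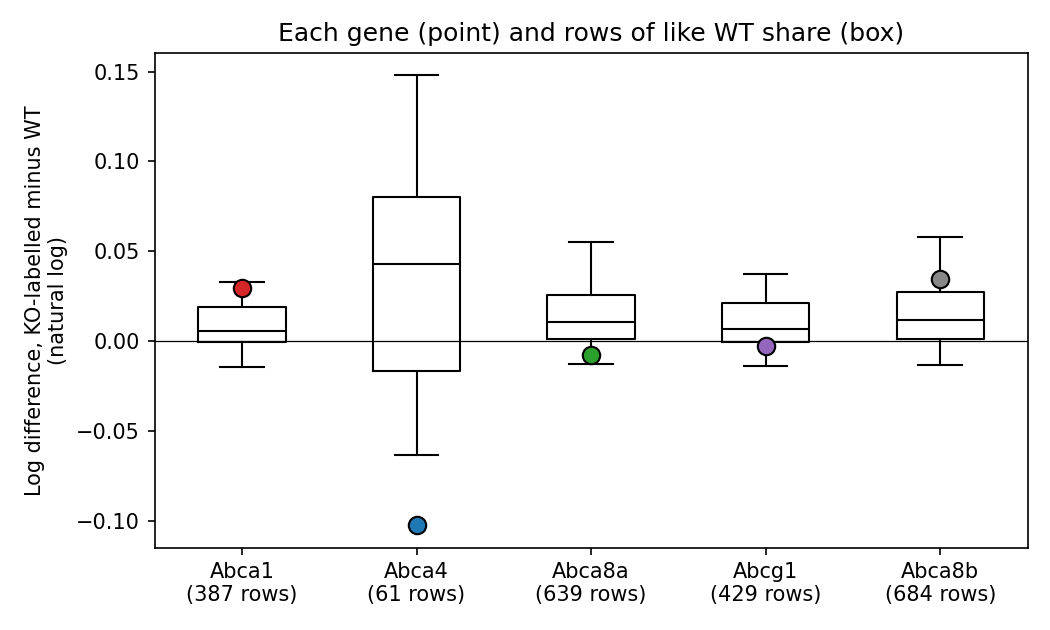
Log difference (KO-labelled minus WT, natural log) of each gene (point) and of the other rows within 5 percentage points of its WT share (box from the first to the third quartile, line at the median, whiskers at percentiles 5 and 95), in the authors' deposited table. Abca4 (-0.102) lies below its whisker, Abca1 (0.0294) and Abca8b (0.0346) above their boxes, and Abca8a and Abcg1 below theirs.

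Genes of the outer segment and of the retinoid cycle, given beside Abca4, had calls in both directions. By the authors' deposited table, 10 of 17 listed disc and outer segment genes were called lower and 6 higher, with a median log difference of -0.00836. Rp1, a microtubule protein gene, had a log difference of -0.263, Prph2, which encodes a disc rim protein, -0.142, and the channel gene Cnga1 -0.140 in the authors' deposited table. The 13 listed retinoid cycle genes had 9 higher and 4 lower calls by the authors' deposited table, with a median of 0.00247. They ran from Rbp3 to the cone opsins Opn1mw (0.0685) and Opn1sw (0.0940) in the authors' deposited table. Over all rows, 69.1% were called higher and 24.1% lower. Read against the median row, 4 of the 13 retinoid cycle genes were higher. So were 5 of the 16 called disc and outer segment genes, against 49.2% of all called rows.

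Rod and cone markers moved in opposite directions beside Abca4, which both kinds of photoreceptor express. The 7 rod markers counted were all called lower in the authors' deposited table, with Gngt1 (-0.250), a transducin subunit gene, Sag (-0.192), the rod arrestin gene, and a median log difference of -0.140. All 7 listed cone markers had higher calls in the authors' deposited table, led by Arr3 (0.173) and Pde6h (0.132), with a median of 0.0940. Among all rows, 69.1% were called higher and 24.1% lower. Rod markers were above 0 in 78.7% to 98.9% of KO-labelled cells, against 72.4% to 98.7% of WT cells, by the authors' deposited table. Cone markers were above 0 in 65.8% to 76.4% of KO-labelled cells, against 39.9% to 51.9% of WT cells, by the authors' deposited table. The rod list shares Rp1 and Cnga1 with the disc list, and the cone list shares Opn1sw and Opn1mw with the retinoid cycle list. The part of these cells in the value of Abca4 was not tested.

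Abca8a had a larger difference in the share of cells than most genes of like WT share, while its log difference was below 0. It lies on the minus strand of chromosome 11 at chr11:110025634-110095978 (GRCm38, ENSMUSG00000041828.15), with 39 exons and a 3′ untranslated region of 673 bases. Values of Abca8a were above 0 in 60.9% of KO-labelled cells, against 35.8% of WT cells, by the authors' deposited table. Its difference of 25.1 percentage points exceeded that of 486 of 639 rows within 5 points of its WT share, with 150 larger and 3 equal. The log difference of Abca8a, from the authors' deposited table, was -0.00742 (adjusted p = 1.63e-67), and 577 of those 639 rows had a higher one. Nearest to Abca8a were Copz2, a coatomer subunit gene, Gm17750 and Crebbp, a histone acetyltransferase gene, with log differences of -0.00492, -0.00885 and -0.00752 in the authors' deposited table, all called lower. Their likeness to Abca8a in log difference follows from how they were chosen.

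The neighbouring gene Abca8b was called in the other direction. It lies 29788 bases away on the same strand, at chr11:109932190-109995845 (GRCm38, ENSMUSG00000020620.14), and is the only row of an ABC transporter beside the 4 genes, of 50 such protein-coding genes annotated. Values of Abca8b were above 0 in 52.1% of KO-labelled cells, against 36.6% of WT cells, by the authors' deposited table. Its log difference, from the authors' deposited table, was 0.0346 (adjusted p = 0.0327), so the call does not hold at a threshold of 0.001. The 2 log differences stood -0.0420 apart (Abca8a minus Abca8b), and no test of this difference could be made from the table.

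The coding sequences of this pair are similar, so the last coding bases are shown to give the extent of the likeness. They lie before 3′ untranslated regions of 673 bases in Abca8a and 2320 bases in Abca8b, so most 3′ reads of these reference transcripts would fall beyond them. Both sequences come from GENCODE M21 transcripts on the minus strand of chromosome 11, end with the stop codon, and have capitals where an alignment found the other gene's base different or missing.
Abca8a: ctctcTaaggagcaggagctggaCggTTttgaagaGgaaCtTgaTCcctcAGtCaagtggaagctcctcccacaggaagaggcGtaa
Abca8b: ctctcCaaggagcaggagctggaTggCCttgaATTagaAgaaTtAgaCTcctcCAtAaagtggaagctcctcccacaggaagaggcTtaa

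Of 90 aligned positions 74 were identical, and over the whole coding sequences 74.8% of aligned positions were. The longest identical run of their reference transcripts was 97 bases, and it ended 3473 bases before the end of the Abca8a transcript and 5117 bases before that of Abca8b. Within the last 500 bases, where 3′ sequencing reads concentrate, the longest identical run between any annotated basic transcripts of the pair was 11 bases. Identical runs between any other 2 of the 5 genes were 20 bases or shorter.

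Markers of vascular cells and fibroblasts, and of oligodendrocytes, are given beside Abca8a. For comparison, 69.1% of all rows were called higher and 24.1% lower. The 5 listed endothelial markers had 2 higher and 2 lower calls by the authors' deposited table, with Kdr at 0.0300, Flt1 at 0.0213, Ly6c1 at -0.0160, Cldn5, which was not called, at -0.0125, and a median log difference of -0.00781. The pericyte genes Rgs5 (-0.0507), Acta2 (0.0428) and Pdgfrb (0.00961, below the median row) were all called in the authors' deposited table. The fibroblast markers Col1a2 (0.0252) and Dcn (0.00637, below the median row) had higher calls in the authors' deposited table, and 3 other fibroblast markers were not listed. Dcn was above 0 in 15.9% of KO-labelled cells, against 19.1% of WT cells, by the authors' deposited table. Its share was thus smaller in KO-labelled cells, whereas 97.9% of all rows had a larger one. Of 6 oligodendrocyte markers 0 were listed. The part of these cells in the value of Abca8a was not tested.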

How the data were processed

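The 4 genes and all gene lists were chosen with earlier results of these data known. Per the submitters' processing notes, Cell Ranger, Seurat 3.1.4, DESeq2 and the build GRCm38 were used, with no role given for DESeq2. The test, cell filters, doublet treatment and integration method are not stated in any source used here. One table was analysed as deposited, of the authors' own comparison of all cells, whose first group was taken as KO because the cluster column holds KO throughout. Its log difference was deposited without a base and was read as natural log after the convention of that Seurat version. The deposited fraction of cells above 0 was multiplied to percent. Each deposited adjusted p-value was 2000 times the raw one wherever the quotient could be formed, so Bonferroni adjustment over 2000 features was inferred; 1802 were listed, with a largest raw p of 0.00938. Such p-values may treat cells as replicates and then leave out how libraries differ. The fixed feature set and the short form of integrated in the file's title make batch-integrated values likely.

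Ranks, medians, Benjamini-Hochberg values and distances were computed with Python 3.11.15, pandas 2.3.3 and scipy 1.17.1, and alignments with Biopython 1.88. Only the ranks and the Benjamini-Hochberg values were checked on simulated data. Lists cover 14 groups, from which 1 gene that is not reported here was left out. Named genes were the 4 genes, other ABC rows, up to 4 genes per list by absolute log difference and the 3 nearest rows per gene. Crybb2 and Gria2 were named after their values were seen.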

Additional observations from a re-analysis of the deposited data

How the results depend on the processing

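At an adjusted p under 0.001 the same 3 genes were called, with 1624 of all 1802 rows. Benjamini-Hochberg adjustment over the listed rows called all 4 genes and all 1802 rows, and so did adjustment over 2000 features, which was chosen after seeing the data. No raw p above 0.00938 is listed, so both adjustments call every row.

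Taken from the median of all rows, the log differences were 0.0194 for Abca1, -0.112 for Abca4, -0.0175 for Abca8a and -0.0129 for Abcg1. Taken from the median of rows within 5 points of the same WT share, they were 0.0236 for Abca1, -0.145 for Abca4, -0.0179 for Abca8a and -0.00949 for Abcg1, with no change of sign in either case. The difference in the share of cells changed sign for 3 genes. From the median of all rows it was -2.6 percentage points for Abca1, -2.7 for Abca4, 4.3 for Abca8a and -7.7 for Abcg1. From rows of like WT share it was -0.8 for Abca1, -0.9 for Abca4, 3.5 for Abca8a and -6.3 for Abcg1. Of the called rows 74.2% were higher in KO-labelled cells, and 49.2% lay above the median row.

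No paired analysis was possible because the table holds no value per library, and leaving out replicates could not be run for the same reason. The number of cells and the depth are unknown, so counting error could not be given.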

Other observations

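Markers of the retinal pigment epithelium, which shares the retinoid cycle with photoreceptors, were also listed, and Lrat, Rdh5 and Ttr among them also count in the retinoid cycle list. Of 9 looked for, 5 were listed in the authors' deposited table, with 4 called higher and 1 lower and a median log difference of 0.00247. Higher calls made up 69.1% of all rows and lower calls 24.1%. By the authors' deposited table, the melanin genes Dct (0.0800) and Tyrp1 (0.0265) were called higher. The retinol dehydrogenase gene Rdh5 (0.00247) was called higher but lay below the median row, and the retinol acyltransferase gene Lrat (-0.00605) was called lower in the authors' deposited table. By the authors' deposited table, Lrat was above 0 in 15.7% of KO-labelled cells, against 16.7% of WT cells, whereas 97.9% of all rows had a larger share in KO-labelled cells.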
